A study of Mus musculus with 6 samples.

Results

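The myofibroblast genes of the healing scar are taken here as 10 protein-coding genes, Acta2, Tagln, Postn, Fn1, Tnc, Cthrc1, Ltbp2, Fap, Lrrc15 and Meox1. They were chosen by name and found by gene identifier, and all 10 were found among the 52550 genes of the table. RNA came from whole hearts of 6 C57BL/6 mice, 3 wild type (WT) and 3 homozygous for a deletion of the long noncoding RNA called lncRNA-DRR (KO). Every heart, WT and KO alike, was infarcted by permanent ligation of the left anterior descending coronary artery at 8 weeks of age and taken at 10 weeks, 2 weeks after surgery. The single comparison of the design is therefore KO against WT in the infarcted heart, and values of uninfarcted hearts were not analysed here. The labels give neither the extent of the deletion nor the infarct size. Levels are FPKM, the authors' fragment values per transcript length and library size, so levels may be compared between genes.

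Myofibroblasts are the contractile, matrix-forming state that cardiac fibroblasts take on after an infarct. Transforming growth factor beta (TGF-beta), signalling through SMAD proteins, and mechanical tension, signalling through serum response factor (SRF) and its MRTF partners, both drive that state. In the mouse heart it follows ligation within days and fades as the collagen scar matures. In RNA from a whole heart, fewer cells of a type and less RNA per cell cannot be told apart.

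Reference sequence before the transcription start was at hand for 5 of the 10 genes (RefSeq, GRCm38.p6), in windows of 250 bases. Postn, Tnc and Ltbp2 are shown because they were among the genes that varied together from heart to heart, and Lrrc15 because it did not follow them. Each is printed 5′ to 3′ on the gene's own strand, without the bases that lie inside any GENCODE M21 transcript of the gene. Capitals mark 3 short motifs, each searched on both strands. The first is TATAAA, the core promoter box that positions the polymerase. The second is CAGAC, the core of the element that SMAD proteins bind, which reads GTCTG on the opposite strand. The third is GGAATG, the muscle element (M-CAT) that factors of the TEAD family bind. No 2 matches overlapped. Postn and Tnc have 2 windows each, from different start sites; for Postn the one next to the start of its GENCODE gene is printed, and for Tnc the one with the longer stretch outside its transcripts.
Postn (chr3:54360857-54361106, plus strand): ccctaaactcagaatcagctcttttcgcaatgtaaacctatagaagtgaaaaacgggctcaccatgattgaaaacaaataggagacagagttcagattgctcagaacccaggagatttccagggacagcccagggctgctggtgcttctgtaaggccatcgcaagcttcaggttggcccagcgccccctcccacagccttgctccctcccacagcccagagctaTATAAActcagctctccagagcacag
Tnc (chr4:64047016-64047265, minus strand): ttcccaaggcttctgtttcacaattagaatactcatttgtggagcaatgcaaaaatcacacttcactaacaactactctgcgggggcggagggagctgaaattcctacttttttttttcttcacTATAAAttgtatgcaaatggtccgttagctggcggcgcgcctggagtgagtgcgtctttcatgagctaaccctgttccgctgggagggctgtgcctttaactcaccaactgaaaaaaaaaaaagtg
Ltbp2 (chr12:84876533-84876741, minus strand): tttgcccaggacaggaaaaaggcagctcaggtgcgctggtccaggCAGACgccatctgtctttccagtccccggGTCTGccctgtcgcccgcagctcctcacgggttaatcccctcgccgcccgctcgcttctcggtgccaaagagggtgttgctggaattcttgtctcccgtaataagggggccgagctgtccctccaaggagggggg
Lrrc15 (chr16:30283257-30283504, minus strand): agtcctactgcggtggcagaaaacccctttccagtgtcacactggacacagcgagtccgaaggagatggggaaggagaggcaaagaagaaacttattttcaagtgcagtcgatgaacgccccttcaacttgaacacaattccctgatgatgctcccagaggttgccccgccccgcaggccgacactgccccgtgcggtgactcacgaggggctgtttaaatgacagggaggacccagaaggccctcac
For Acta2 most of the window lies inside the longest GENCODE transcript, and only the 30 bases around its M-CAT letters are shown.
Acta2 (chr19:34255502-34255531, minus strand): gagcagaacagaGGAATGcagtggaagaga
Postn and Tnc each hold TATAAA, which 12.4% of 32851 windows of this length hold, and Ltbp2 holds CAGAC on each strand (42.2% of windows hold it at least once). The TATAAA letters lie 26 to 21 bases before the start in Postn but 126 to 121 bases before it in the printed Tnc window. Their use as a core promoter box in Tnc is therefore not shown. The Acta2 window holds GGAATG, found in 12.6% of windows, and CAGAC on the opposite strand. The windows of Postn and Tnc not printed hold CAGAC on 1 strand each, and Lrrc15 holds none of these letters. The CArG box, the SRF element in its strict form, was in none of the windows of the 5 genes and in 1.47% of all windows. Near forms of it were not searched. Outside the stretch printed, the Acta2 window holds ccctatatgg and ccttgtttgg, each 1 letter away from the strict form, so a lack of SRF elements is not shown. These matches describe letters only.

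None of the 10 genes passed the test between genotypes, and in all 10 the WT and KO hearts overlapped on FPKM as deposited. After scaling of the libraries Acta2 alone did not overlap. Overlap and orders of hearts are given on FPKM as deposited unless stated. The larger contrast lay between hearts of the same genotype: WT replicate 1 and KO replicate 2 were the highest pair for Postn, Fn1, Tnc, Cthrc1, Ltbp2 and Meox1 (6 of 10 genes on FPKM as deposited, 4 of 10 after scaling of the libraries). WT replicate 3 was the lowest of the 6 hearts for 6 genes. Some facts on the libraries apply to all that follows. WT replicate 1 and KO replicate 2 had the lowest summed FPKM of 12 heart muscle cell genes (16721 and 18224, against 22505 to 25172 in the other 4 libraries) and the smallest share of total FPKM in the 8 highest genes (44.9% and 49.1%, against 54.9% to 57.9%). KO replicate 3 alone read as female by Xist (25.6 FPKM, against at most 0.0742) and Ddx3y (0.0280 FPKM, against 13.0 to 16.2). The noncoding RNA itself was not identified among the genes, so its level could not serve as a check of the genotypes. The depth was estimated at 5189000 to 9398000 fragments per library, from the step between low values; WT replicate 1 and KO replicate 2 were the deepest (9398000 and 8163000). The part of muscle content, depth and sex in the values below was not tested.

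**Figure D1:**
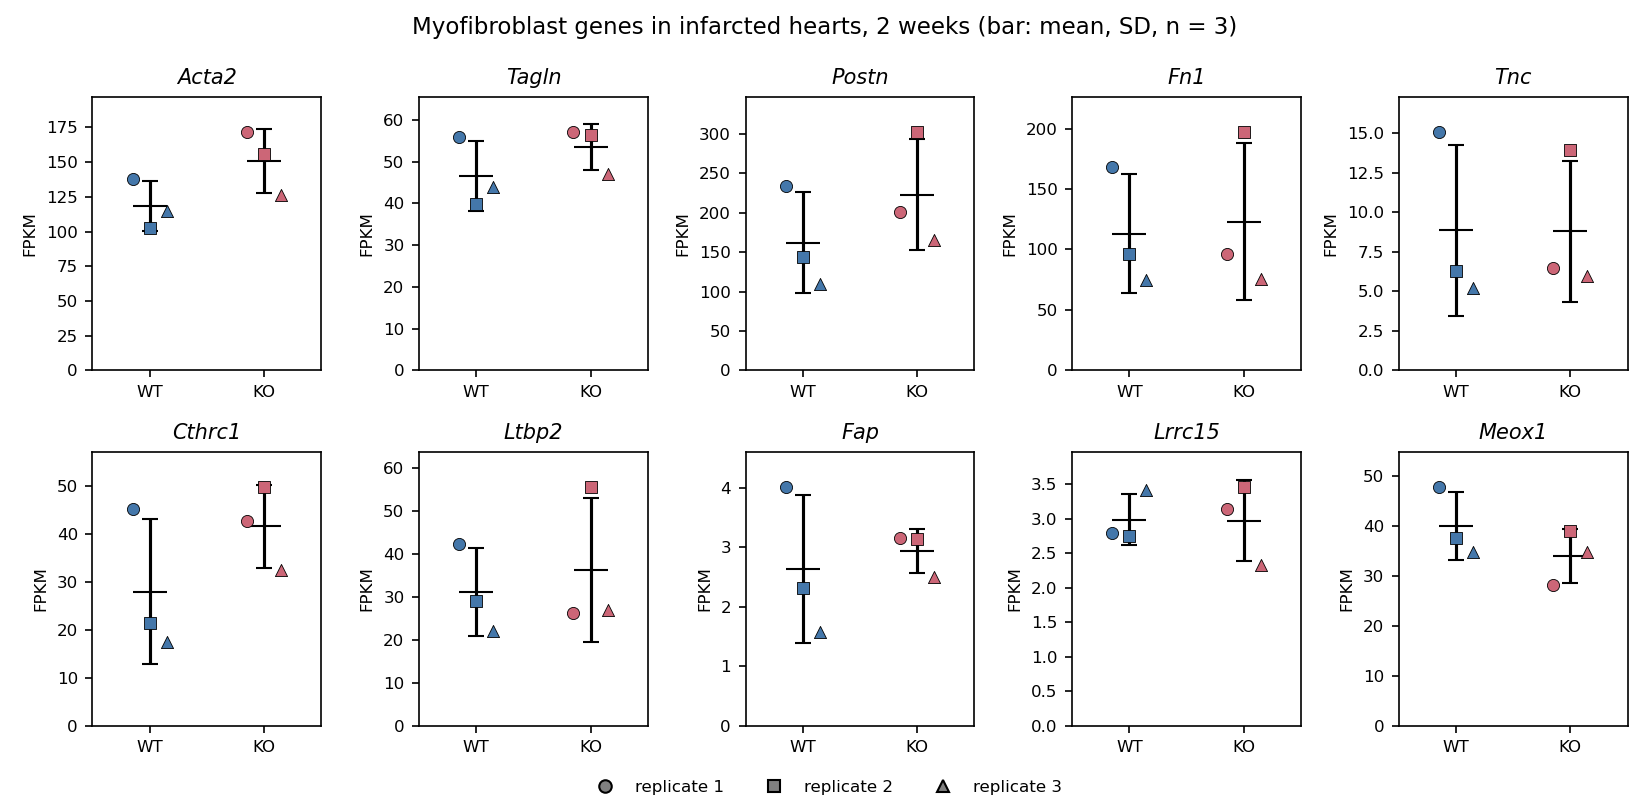
FPKM of each of the 10 genes (vertical axis, from 0) in the 3 WT and 3 KO hearts; the symbol gives the replicate number, the horizontal bar the mean and the whiskers the SD (n = 3). Within each genotype 1 heart stands high for Fn1 and Tnc, WT replicate 1 and KO replicate 2, and the WT and KO ranges overlap in every panel.

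Acta2 and Tagln encode smooth muscle alpha-actin and transgelin (SM22), the contractile proteins by which myofibroblasts are recognised and which vessel smooth muscle makes as well. Acta2 (chromosome 19, 34241090 to 34255590, GRCm38) stood at 138, 103 and 115 FPKM in WT replicates 1 to 3 and at 172, 156 and 126 FPKM in KO replicates 1 to 3. KO replicates 1 and 2 lay above every WT heart, while KO replicate 3 lay below WT replicate 1 on FPKM as deposited. After scaling, KO replicate 3 (-0.037 from the mean of the 6 hearts, log2 scale) lay just above WT replicate 1 (-0.049). On that scale the genotypes did not overlap. This and every difference below is KO minus WT on the scale of log2(FPKM / factor + 0.5), where the factor scales each library. The log2 difference of Acta2 was 0.36 ± 0.17 (SE, n = 3 per group, limma adjusted p = 0.630), and its 95% interval ran from a ratio of 0.982 to one of 1.68. Without KO replicate 1 it was 0.23. Tagln stood at 56.0, 39.8 and 43.9 FPKM in the WT hearts and 57.0, 56.4 and 47.0 FPKM in the KO hearts. WT replicate 1 was level with the 2 higher KO hearts, and the other WT hearts were the lowest of the 6. Its log2 difference was 0.22 ± 0.14 (limma adjusted p = 0.766), and it was 0.12 without WT replicate 2 and 0.14 without KO replicate 1. A pair of annotated genes overlaps Tagln on the opposite strand (the higher at up to 21.3 FPKM), and the sources used here do not give whether the counting used strand.

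Postn encodes periostin, a matricellular protein made by activated fibroblasts and the usual genetic marker of that state in the mouse heart. It was the highest of the 10 genes in 5 of the 6 hearts, at 233, 143 and 109.7 FPKM in the WT hearts and 201, 302 and 165 FPKM in the KO hearts. KO replicate 2 was above every other heart, and WT replicate 1 was above the other 2 KO hearts. The log2 difference was 0.50 ± 0.28 (limma adjusted p = 0.708), with a 95% interval from a ratio of 0.902 to one of 2.21. A rise of Postn to 2 times the WT level thus lay inside the interval, and so did no difference. The difference was 0.29 without WT replicate 3, 0.30 without KO replicate 2 and 0.75 without WT replicate 1.

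Cthrc1, a secreted protein of collagen-producing fibroblasts in injured tissue, had the largest difference of the 10. It stood at 45.1, 21.3 and 17.3 FPKM in the WT hearts and 42.5, 49.6 and 32.4 FPKM in the KO hearts. All 3 KO hearts lay above WT replicates 2 and 3, and WT replicate 1 lay among the KO hearts. The log2 difference was 0.68 ± 0.30 (limma adjusted p = 0.621). Without WT replicate 1 it was 1.03, without WT replicate 3 it was 0.44, and with any other single heart left out it lay between 0.56 and 0.83; no fit tried called the gene (lowest limma adjusted p = 0.173, without WT replicate 1).

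Fn1 encodes fibronectin, the provisional matrix on which the scar is laid down, and Tnc encodes tenascin-C, an adhesion-modulating matrix protein seen at the edge of healing infarcts. Fn1 stood at 168, 95.9 and 74.9 FPKM in the WT hearts and 96.5, 197 and 75.5 FPKM in the KO hearts. Tnc stood at 15.1, 6.29 and 5.22 FPKM in the WT hearts and 6.46, 14.0 and 5.98 FPKM in the KO hearts. For both genes WT replicate 1 and KO replicate 2 stood apart at the top and the other 4 hearts lay close together. The highest heart had 2.25 times the Fn1 level of the lowest among WT and 2.61 times among KO hearts; for Tnc these ratios were 2.89 and 2.34. Between the genotypes the log2 difference was 0.09 ± 0.36 for Fn1 and 0.05 ± 0.39 for Tnc (limma adjusted p = 0.971 and 0.989). The 95% interval for Tnc ran from a ratio of 0.548 to one of 1.95, so these hearts did not exclude a difference of nearly 2 times in either direction. Without KO replicate 2 both differences were below 0, at -0.26 for Fn1 and -0.28 for Tnc.

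Ltbp2 encodes a latent TGF-beta binding protein family member that is placed on elastic microfibrils and does not itself bind latent TGF-beta. It stood at 42.4, 29.04 and 22.0 FPKM in the WT hearts and 26.3, 55.5 and 26.9 FPKM in the KO hearts, again with WT replicate 1 and KO replicate 2 at the top. Its log2 difference was 0.19 ± 0.29 (limma adjusted p = 0.913) and became -0.12 without KO replicate 2. An antisense gene lies across Ltbp2 (up to 8.92 FPKM) and another across Fn1 (up to 11.6 FPKM).

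Fap and Lrrc15 encode surface proteins of activated fibroblasts, fibroblast activation protein (a serine protease) and a leucine-rich repeat protein. Both were low. Fap stood at 4.01, 2.32 and 1.58 FPKM in the WT hearts and 3.15, 3.14 and 2.50 FPKM in the KO hearts, so that the WT hearts spanned the KO range (log2 difference 0.21 ± 0.25, limma adjusted p = 0.871). Lrrc15 stood at 2.79, 2.74 and 3.41 FPKM in the WT hearts and 3.14, 3.45 and 2.32 FPKM in the KO hearts. It was high in WT replicate 3, where 6 of the other genes were at their lowest, and its difference was -0.00 ± 0.17 (limma adjusted p = 0.997), which turned to 0.01 when libraries were scaled by their total without the highest genes.

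Meox1 encodes a homeobox transcription factor that acts in fibroblast activation. It stood at 47.8, 37.7 and 34.8 FPKM in the WT hearts and 28.1, 39.0 and 34.9 FPKM in the KO hearts. It was the gene of the 10 with the most negative difference, -0.22 ± 0.14 (limma adjusted p = 0.7497), and the lowest heart was KO replicate 1, which was the highest for Acta2 and Tagln. The difference was -0.12 without KO replicate 1 and -0.14 without WT replicate 1.

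**Figure D2:**
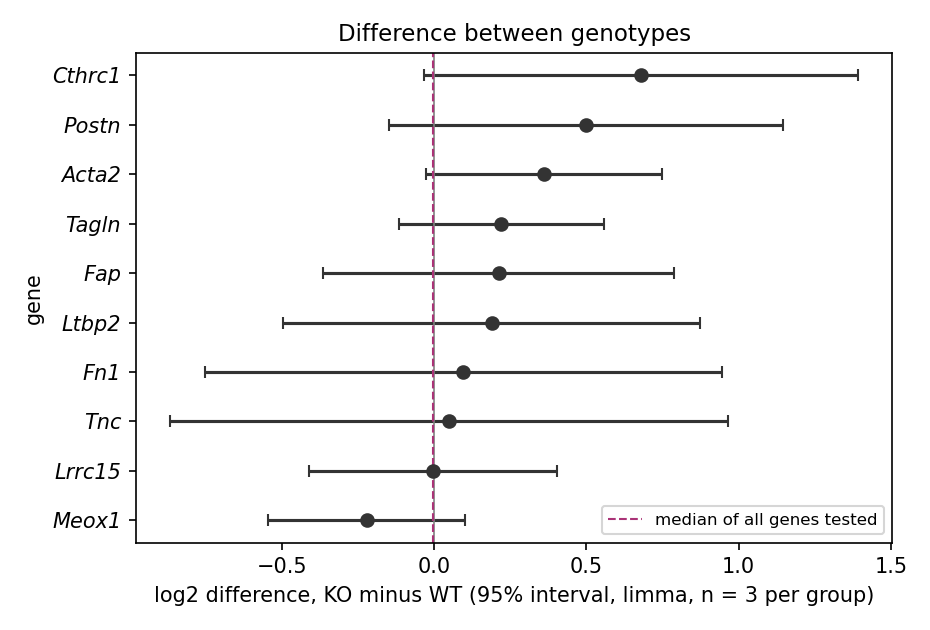
Log2 difference KO minus WT of each gene (horizontal axis) with its 95% interval from limma (n = 3 per group); the dashed line is the median of all genes tested. Every interval includes 0; Cthrc1, at 0.68, and Meox1, at -0.22, are the ends of the list.

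As a list, 0 of the 10 genes were called at a limma adjusted p under 0.05 and 0 had an unadjusted p under 0.05, where 0.375% (0.273% higher and 0.102% lower in KO) and 8.48% of the 14656 genes tested did. All 10 passed the filter on low values. On FPKM as deposited, in none did WT and KO libraries fail to overlap, against 12.8% of all genes tested. After scaling Acta2 did not overlap, and the share over all genes was not taken on that scale. The difference was above 0 in 8 genes and below 0 in Meox1 and Lrrc15, with a median of 0.20, where the median over all genes tested was -0.00 and 49.3% of them lay above 0. The median moved with single hearts: it was 0.41 without WT replicate 1, 0.32 without KO replicate 3, 0.06 without WT replicate 3 and 0.07 without KO replicate 2, and 0.22 without WT replicate 1 and KO replicate 2 together. No gene of the 10 was called in any of these fits. The SD within genotypes on the log2 scale ran from 0.16 for Meox1 to 0.63 for Tnc, with a median of 0.39, and exceeded the median of all genes tested (0.22) in 7 of the 10.

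Among themselves the 10 genes fell into several orders of hearts on FPKM as deposited. Acta2 and Tagln shared one order over all 6 hearts, led by KO replicates 1 and 2. Postn and Cthrc1 shared another, KO replicate 2, WT replicate 1, KO replicate 1, KO replicate 3, WT replicate 2 and WT replicate 3. Fn1 and Tnc differed from each other only in which of WT replicate 1 and KO replicate 2 came first. KO replicate 1 separated these sets: on the log2 scale, after scaling, it deviated from the mean of the 6 hearts by 0.44 for Acta2, 0.27 for Tagln, 0.46 for Cthrc1 and 0.21 for Postn, but by -0.12 for Fn1, -0.24 for Tnc, -0.21 for Ltbp2 and -0.31 for Meox1.

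**Figure D3:**
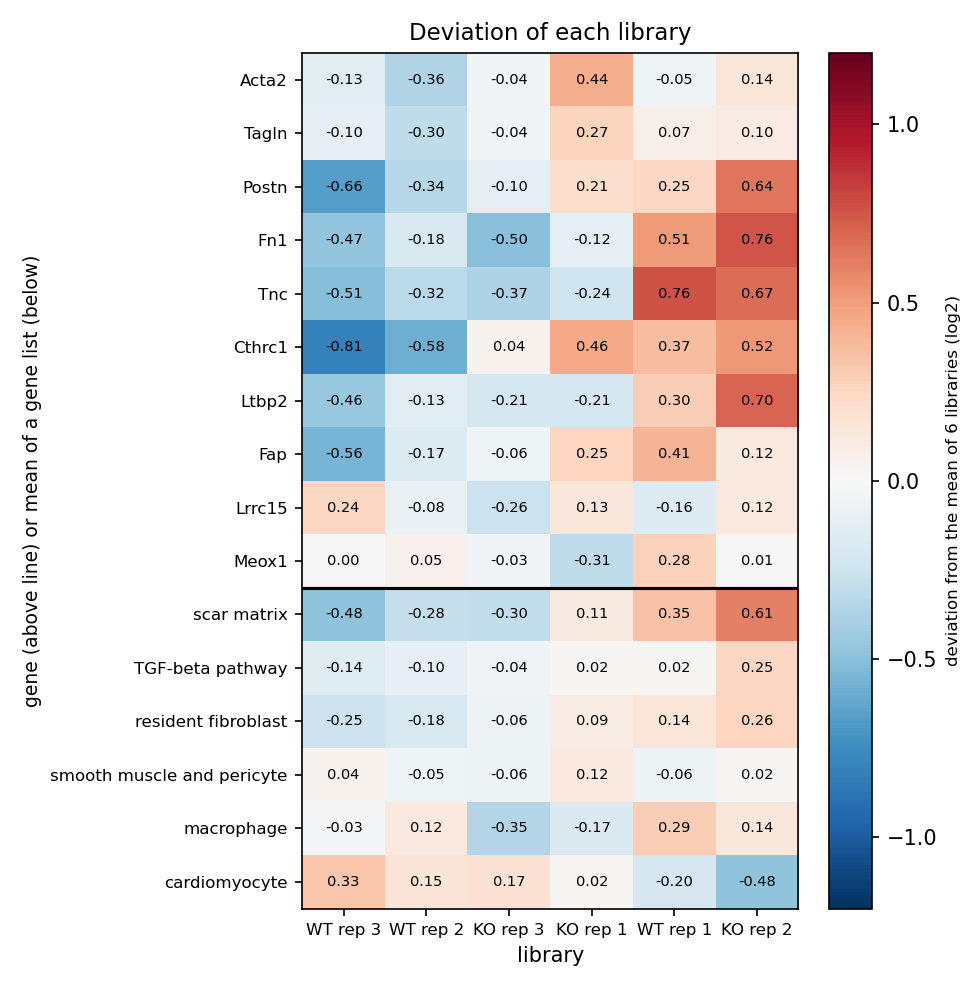
Deviation of each library from the mean of the 6 (log2 scale, colour and number) for the 10 genes above the line and for the mean of each of 6 gene lists below it; libraries are columns. WT replicate 1 and KO replicate 2 at the right are high for Fn1, Tnc and scar matrix (0.35 and 0.61) and low for cardiomyocyte genes (-0.20 and -0.48).

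The pattern of the hearts was also seen in the wider scar matrix. For 27 matrix genes (collagens, crosslinking enzymes and proteoglycans) the summed FPKM was 4258, 2477 and 2075 in the WT hearts and 3392, 5217 and 2402 in the KO hearts. WT replicate 1 and KO replicate 2 were the highest pair for 25 of the 27 genes on FPKM as deposited. Fewer genes kept this order after scaling, when KO replicate 1 entered the highest pair for Col8a1, Loxl2, Thbs2 and Ctsk. None was called (0.375% of all genes tested were), 25 of 27 had a difference above 0 (49.3% of all genes tested), and the median was 0.23. Loxl2, a lysyl oxidase that crosslinks collagen, stood at 20.1 ± 5.5 FPKM in the WT hearts and 33.4 ± 14.5 FPKM in the KO hearts (SD, n = 3), Aspn, the proteoglycan asporin, at 187 ± 72 and 291 ± 67 FPKM, and Plod2, a collagen lysyl hydroxylase, at 13.9 ± 3.2 and 20.5 ± 6.1 FPKM; these were the 3 matrix genes of smallest p (limma adjusted p = 0.516, 0.529 and 0.507).

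Over 28 genes of the TGF-beta pathway, from ligands and latency proteins to receptors, SMADs and targets, the median difference was 0.12. Of the ligand genes, named after their values were seen, Tgfb1 stood at 16.6, 13.8 and 14.0 FPKM in the WT hearts and 11.7, 18.3 and 12.9 FPKM in the KO hearts (log2 difference -0.05 ± 0.15, limma adjusted p = 0.954). Tgfb2 stood at 6.87, 6.01 and 5.24 FPKM in the WT hearts and 6.27, 12.1 and 6.43 FPKM in the KO hearts, with KO replicate 2 far above the other hearts (0.38 ± 0.22, limma adjusted p = 0.717). Tgfb3 stood at 73.5, 41.9 and 39.8 FPKM in the WT hearts and 45.8, 69.7 and 31.2 FPKM in the KO hearts (-0.09 ± 0.29, limma adjusted p = 0.967). Ccn2, a target of the pathway that encodes a matricellular protein, stood at 250.2, 173 and 148 FPKM in the WT hearts and 310.2, 390.4 and 244 FPKM in the KO hearts, with WT replicate 1 above KO replicate 3 as deposited (0.75 ± 0.21, limma adjusted p = 0.317). After scaling, KO replicate 3 (0.06 from the mean of the 6 hearts, log2 scale) lay above WT replicate 1 (-0.04), and the genotypes did not overlap. Smad6, an inhibitory SMAD, stood at 7.19 ± 0.86 FPKM in the WT hearts and 5.45 ± 0.57 FPKM in the KO hearts, without overlap, and was not called (limma adjusted p = 0.409).

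A list of contractile, cytoskeletal and other genes tied to SRF and MRTF, without Acta2 and Tagln, showed 0 of 24 called and a median difference of 0.07. Only 0.375% of all genes tested were called, so a count of 0 in this list and the 2 below says little. The SRF and MRTF list includes the regulators Srf, Mrtfa, Mrtfb and Myocd themselves. No overlap between genotypes was seen for 2 of the 24, Zyx among them, against 12.8% of all genes tested. The 3 of the list with smallest p were Zyx, encoding the focal adhesion protein zyxin (17.3 ± 1.7 FPKM in the WT and 24.6 ± 3.9 FPKM in the KO hearts), S100a4, a calcium-binding protein gene (20.1 ± 3.5 and 26.5 ± 3.4 FPKM), and Actg2, the gamma actin of smooth muscle (1.64 ± 0.78 and 2.75 ± 0.79 FPKM), with limma adjusted p of 0.401, 0.398 and 0.545. Of 25 tested regulators and surface genes of fibroblast activation 0 were called (median 0.14). Ccn4, a matricellular protein gene, stood at 3.87, 3.02 and 1.98 FPKM in the WT hearts and 6.83, 11.9 and 4.57 FPKM in the KO hearts, with no overlap (limma adjusted p = 0.258). Thy1, a fibroblast surface antigen, stood at 11.3 ± 3.5 and 15.8 ± 3.3 FPKM, and Scx, the transcription factor scleraxis, at 6.30 ± 1.51 and 4.09 ± 0.82 FPKM (limma adjusted p = 0.510 and 0.520). Of 13 tested integrins and other receptors for fibronectin, tenascin-C or periostin 0 were called (median -0.06); Itga4, Itgb3 and Sdc4 had the smallest p, with differences of -0.49, -0.41 and -0.31 (limma adjusted p = 0.473, 0.621 and 0.640).

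Acta2 and Tagln are shared with the vessel wall, so the levels of smooth muscle genes are set beside them. Myh11, the smooth muscle myosin heavy chain, stood at 20.8, 19.2 and 19.9 FPKM in the WT hearts and 22.0, 19.5 and 17.4 FPKM in the KO hearts, nearly level (log2 difference -0.01 ± 0.13, limma adjusted p = 0.991). Cnn1, calponin, stood at 3.203 ± 0.657 and 3.65 ± 0.68 FPKM. Over 12 smooth muscle and pericyte genes the summed FPKM was 804.5 to 828 in the WT hearts and 778 to 862 in the KO hearts (exact permutation test, two-sided p = 0.6). The level sum does not mean that each gene was level. The log2 difference was above 0 in 8 of the 12 and below 0 in 4, with a median of 0.02. WT and KO hearts did not overlap for 5 of the 12, in both directions, against 12.8% of all genes tested, and none was called. The ratio of Acta2 to Myh11 within a heart was 6.63, 5.34 and 5.77 in the WT hearts and 7.78, 7.96 and 7.23 in the KO hearts, so every KO heart lay above every WT heart, as was the case for 4.8% of all tested genes set over Myh11 (9.66% separated in either direction). That of Tagln to Myh11 was 2.69, 2.07 and 2.20 against 2.59, 2.88 and 2.70, and overlapped. Acta2 was the 1 gene of the 10 without overlap on this ratio. The result depended on the smooth muscle or pericyte gene chosen: every KO heart lay above every WT heart for Acta2 over 3 of the 12 genes of the list (Myh11, Kcnj8 and Rgs4) and for Tagln over 1 (Kcnj8), and the hearts overlapped over the others. Of the genes of this list, the share of all tested genes that separated was taken over Myh11 only. Lmod1, the smooth muscle leiomodin, was itself higher in every KO heart (log2 difference 0.36 ± 0.13, limma adjusted p = 0.466), and Acta2 over Lmod1 was 37.6, 33.7 and 31.5 in the WT hearts and 37.7, 32.1 and 29.8 in the KO hearts. The ratios were chosen after the values were seen.

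Set over resident fibroblast genes, the picture depended on the gene chosen. Pdgfra, the platelet-derived growth factor receptor of fibroblasts, stood at 16.04, 9.81 and 9.38 FPKM in the WT hearts and 9.82, 12.5 and 8.88 FPKM in the KO hearts, and Tcf21, a transcription factor of resident fibroblasts, at 8.37, 6.96 and 7.69 against 9.72, 12.3 and 8.12 FPKM. Their log2 differences went opposite ways, -0.13 ± 0.19 for Pdgfra and 0.36 ± 0.15 for Tcf21 (limma adjusted p = 0.905 and 0.550). Of the list of 12 resident fibroblast genes 10 lay above 0 and 2 below, with a median of 0.20, as for the 10 myofibroblast genes. Pdgfra thus went against most of its list, and ratios to the rest of that list were not taken. Over Pdgfra, every KO heart lay above every WT heart for Postn, Acta2, Fap and Cthrc1 (4 of 10; 7.92% of all tested genes did so, and 10.1% separated in either direction). The ratio of Postn to Pdgfra was 14.5, 14.6 and 11.7 in the WT hearts and 20.5, 24.2 and 18.6 in the KO hearts. Over Tcf21, 0 of the 10 did so (0.914% of all tested genes), and the hearts separated in the other direction for Meox1 and Lrrc15 (no overlap in 30.4% of all tested genes, either direction). The ratio of Postn to Tcf21 was 27.9, 20.6 and 14.3 in the WT hearts and 20.7, 24.5 and 20.4 in the KO hearts. Over Col1a1, the main collagen gene of the scar, none of the 10 separated (3.62% of all tested genes did). The ratio of Cthrc1 to Col1a1 was 0.148, 0.147 and 0.147 in the WT hearts and 0.195, 0.135 and 0.248 in the KO hearts, so the 3 WT hearts were alike and the KO hearts spread to either side of them.

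**Figure D4:**
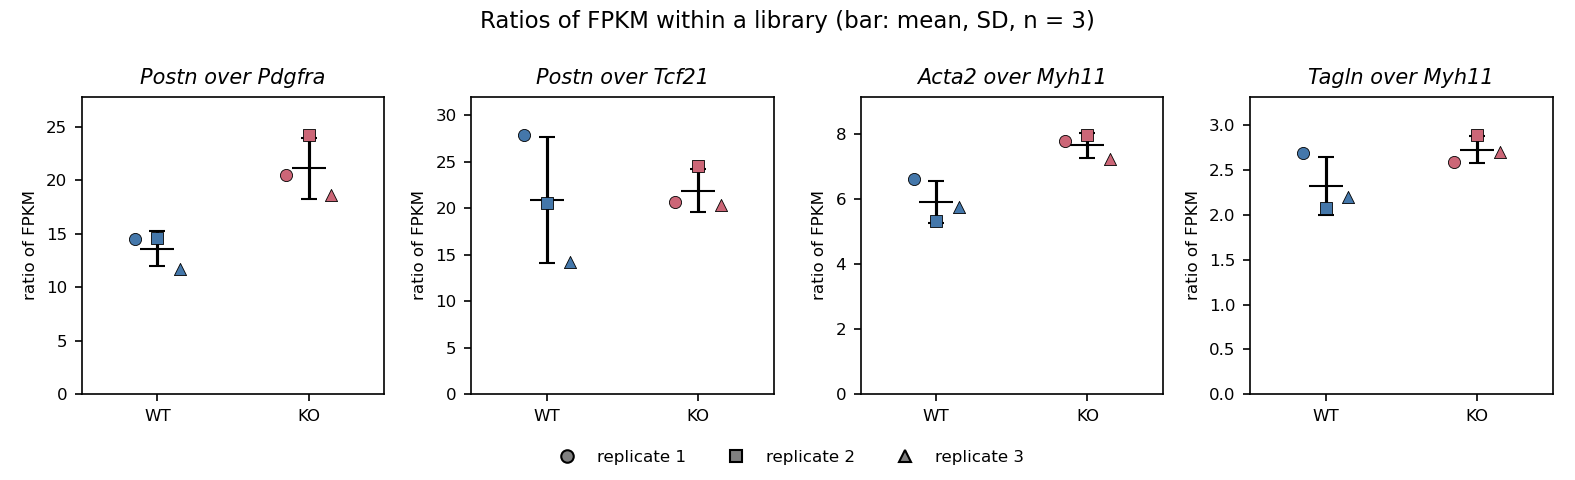
Ratios of FPKM within a heart (vertical axes, from 0) for Postn over each of 2 resident fibroblast genes and for Acta2 and Tagln over the smooth muscle gene Myh11; symbols give the replicate, bars the mean and whiskers the SD (n = 3). Postn over Pdgfra separates the genotypes (11.7 to 14.6 against 18.6 to 24.2), and Postn over Tcf21 does not.

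Markers of the other cell types of the infarct were compared by their summed FPKM as deposited, without scaling of the libraries. Over 12 resident fibroblast genes the sum was 1898, 1427 and 1324 in the WT hearts and 1696, 2088 and 1527 in the KO hearts (exact permutation test, two-sided p = 0.4), again highest in WT replicate 1 and KO replicate 2 on these unscaled sums. Their mean deviation after scaling, on the log2 scale, was 0.14 in WT replicate 1, 0.26 in KO replicate 2 and 0.09 in KO replicate 1. Over 12 macrophage genes it was 1270.0, 854 and 728 in the WT hearts and 723, 950.3 and 683 in the KO hearts (exact permutation p = 0.5), so macrophage genes too were highest in WT replicate 1 and KO replicate 2 of their genotypes. Over 8 genes of the epicardium the sums were 49.97, 22.8 and 27.3 against 29.7, 48.3 and 27.3 (exact permutation p = 0.7). For the 12 heart muscle cell genes, 8 had WT replicate 1 and KO replicate 2 as their lowest pair (exact permutation p = 1.0 for the sum between genotypes). The sum does not mean that each heart muscle cell gene was level. The log2 difference was above 0 in 1 of the 12 and below 0 in 11, with a median of -0.17 (49.3% of all genes tested lay above 0). WT and KO hearts did not overlap for 3 of the 12, against 12.8% of all genes tested, and none was called. Myl7, the atrial myosin light chain, stood at 25.2 FPKM in KO replicate 2, between 1.07 and 4.80 FPKM in WT replicates 1 to 3 and KO replicate 3, and was listed at 0 in KO replicate 1. Over 11 such marker lists the smallest exact permutation p was 0.1, for endothelial genes, the smallest that 3 against 3 allows, and every p adjusted over the lists was 0.77 or more.

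The genes outside all lists whose levels over the 6 hearts were most like the mean of the 10 were Mfap4, Gnl1, Fam207a, B3gnt9 and Wdr81, with Pearson correlations of 0.994, 0.993, 0.993, 0.991 and 0.990 over 6 libraries that share depth and tissue content. Mfap4, a microfibril-associated protein gene, stood at 162, 85.8 and 71.6 FPKM in the WT hearts and 112, 164 and 87.2 FPKM in the KO hearts, in the same order of hearts as Postn and Cthrc1. These correlations describe the 6 libraries only.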

How the data were processed

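RNA of 6 infarcted mouse hearts was sequenced from TruSeq libraries, per the labels' protocols, and grouped by the genotype and replicate number of the titles. The values the authors deposited are FPKM, despite a title that speaks of counts. Among low values of genes with 1 transcript, only 28.7% to 29.6% were whole fragments (tolerance 0.02), so no count model was used and depths are approximate. Bowtie 0.12.2 and the builds mm8 and mm9 appear, without a role, in the submitters' processing notes; how FPKM was computed is not given in the sources used here. Gene names and GRCm38 coordinates came from GENCODE M21 (52403 of 52550 identifiers matched).

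The 14656 genes that reached 0.5 FPKM in 3 libraries were scaled by trimmed means of log2 ratios (trims of 0.3 and 0.05; factors 0.949 to 1.07). They were fitted as log2(FPKM / factor + 0.5) on genotype by limma 3.58.1 (R 4.3.3; mean-variance trend, two-sided), adjusted by Benjamini-Hochberg over all tested genes and called at 0.05. This scale understates differences of low genes. The script was tested on simulated data. Alternatives were other scalings, filters and pseudocounts (0.1 and 1), a robust fit, a replicate block and each library left out. Nothing in the labels ties replicates to litters or batches, so the spread behind each p-value is that among these samples and may be technical in part.

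The 10 genes and all lists were chosen with earlier results of these data known. Named besides the 10 genes were the called genes and the 3 of smallest p of each pathway list, the first 2 of the marker lists where they bear on a result, and the 5 genes of most similar pattern. Other genes named, such as the TGF-beta ligands, Lmod1, Kcnj8, Rgs4, Col1a1, Myl7, Angptl7 and Tead1, fall outside this rule and were picked with their values known. One result of the TGF-beta list, and with it that list's count of called genes, is not reported here. Summed FPKM was compared by exact permutation.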

Additional observations from a re-analysis of the deposited data

How the results depend on the processing

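None of the 10 genes was called under any of the alternatives run. Their median difference, 0.20 as reported, was 0.18 to 0.21 under the other scalings, filters, pseudocounts and fits and 0.06 to 0.41 with single libraries left out (lowest without WT replicate 3, highest without WT replicate 1). The count of genes called over the whole table was less stable: 55 as reported, 20 with no filter on low values, 12 to 36 with single libraries left out, and 3 without WT replicate 1 and KO replicate 2 together, an alternative chosen after seeing the data (fewer samples, 2 per group). With a replicate block 42 genes were called and none of the 10. Between same-numbered hearts the r of deviations across genes was 0.01 for replicate 1, -0.04 for replicate 2 and 0.18 for replicate 3. The highest r, 0.19, was that of WT replicate 1 with KO replicate 2, close to the value for replicate 3. Since replicates 1 and 2 showed no such tie, the numbers were not taken as pairs. With single libraries left out, the log2 difference ran from -0.015 to 0.47 for Fap, from -0.28 to 0.44 for Tnc, from -0.12 to 0.38 for Ltbp2, from -0.26 to 0.37 for Fn1 and from -0.083 to 0.13 for Lrrc15, so their direction is not fixed by these data; the cause was not tested. It ran from 0.29 to 0.75 for Postn, from 0.23 to 0.47 for Acta2, from 0.12 to 0.31 for Tagln, from 0.44 to 1.03 for Cthrc1 and from -0.28 to -0.12 for Meox1. Lrrc15 also turned to 0.0054 when scaled by the total without the highest genes. The number of hearts limits the precision: the median 95% interval of the 10 genes reached 0.61 to either side on the log2 scale.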

Other observations

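Outside the 10 genes, the WT and KO hearts did not overlap for Chad, Angptl7 and Wt1, which were chosen after their values were seen; none of them was called, and 12.8% of all genes tested did not overlap. Chad, which encodes the cartilage matrix protein chondroadherin, stood at 2.99, 4.46 and 2.34 FPKM in the WT hearts and 6.68, 15.3 and 7.26 FPKM in the KO hearts (adjusted p by limma, 0.175). Angptl7, an angiopoietin-like secreted protein gene, stood at 60.1, 27.2 and 19.6 FPKM in the WT hearts and 85.8, 110.5 and 60.4 FPKM in the KO hearts, with WT replicate 1 and KO replicate 3 nearly level (limma adjusted p = 0.283). Wt1, a transcription factor of the epicardium, stood at 1.28, 0.912 and 1.66 FPKM in the WT hearts and 2.00, 3.62 and 2.73 FPKM in the KO hearts (limma adjusted p = 0.272).

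Tead1, which encodes a factor that reads the M-CAT letters, stood at 1.41 FPKM in KO replicate 3 and between 10.4 and 17.3 FPKM in the other 5 hearts. In that heart Acta2 was at 126 FPKM, the lowest of the KO hearts and above WT replicates 2 and 3. This was not particular to Acta2: KO replicate 3 was also the lowest KO heart for Postn, Tagln, Fap, Tnc, Cthrc1, Fn1 and Lrrc15. A tie between Tead1 and Acta2 was not tested. The Tead1 value was noticed in the data and rests on 1 library.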
